A study of Mus musculus with 4 samples.

Results

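A set of 45 genes that copy DNA or run the S phase of the cell cycle was followed through macrophage polarization. The genes were taken by name from a list that covers the MCM helicase, the proteins that load and start it, DNA polymerases, the sliding clamp, nucleotide supply, chromatin copying, the E2F and cyclin E regulators and the S-phase checkpoint. All 45 were found on the array, by 54 probes, among 23660 gene names with a value on every array. Where a gene had several probes, the brightest over the 4 arrays stood for it. Of the 45 genes, 40 were well above background on all 4 arrays, 44 were so on at least 1 array, and only Ccne2 was so on none.

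Bone marrow-derived macrophages (BMDMs) of C57BL/6J mice, 10 weeks old, were grown for 6 days in L929 cell supernatant and then stimulated for 2 days. M2 was a wild-type culture given 50 ng per ml of IL-4, and M1 a wild-type culture given 20 ng per ml of IFN-γ and 100 ng per ml of LPS. The Lamtor1-deficient culture (gene p18, 2400001E08Rik, -/-) was given the same dose of IL-4 as M2, and the Torin1-treated culture was wild-type, given IL-4 together with 250 nM of the mTOR inhibitor Torin1. In the study's mice, the loss of Lamtor1 is made by LysM-Cre, which acts in myeloid cells, on floxed alleles. Each condition was measured on 1 Agilent array, so there was no test, and every difference below lies between 2 arrays without a replicate check.

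A dividing cell licenses its origins by loading the ring-shaped MCM helicase with Cdc6 and Cdt1, and then fires them with Mcm10, Cdc45 and the GINS complex. Polymerases, clamp loaders and the clamp Pcna copy the strands, while ribonucleotide reductase and thymidine kinase supply nucleotides. Most of these genes are transcribed late in G1 by E2F factors, and mTORC1, which Lamtor1 anchors on the lysosome and Torin1 blocks, couples growth signals to entry into the cycle. Macrophages grown with M-CSF divide in culture, and many stop when they are activated by LPS.

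Promoter sequences are shown for members at the low and the high end of the ratios of the treated cultures to M2. RefSeq promoters (GRCm38.p6, from 250 bases before to 50 after the start of transcription) were at hand for 38 of the 45 genes, and not for Mcm4, Gins1, Gins2, Prim2, Pole, Dscc1 and Ccne2. An E2F word was taken as TTTCCCGC, TTTCGCGC, TTTGCCGC or TTTGGCGC on either strand, and capitals mark it below. The genes are Tk1 and Mcm10, which with Dscc1 were the lowest in Lamtor1-deficient or Torin1-treated BMDMs, and those at least 2-fold higher there (Dut, Lig1, Cdt1 and Gins3), each on its coding strand. Where a gene had several promoters, the promoter with the most E2F words was taken.
Tk1 (chr11:117825965-117826264, minus strand): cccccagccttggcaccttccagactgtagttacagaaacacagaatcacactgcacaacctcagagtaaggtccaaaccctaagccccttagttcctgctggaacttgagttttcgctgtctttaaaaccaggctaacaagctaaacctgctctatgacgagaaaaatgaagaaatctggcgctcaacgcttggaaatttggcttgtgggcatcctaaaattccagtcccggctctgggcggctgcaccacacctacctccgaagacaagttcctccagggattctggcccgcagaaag
Mcm10 (chr2:5012742-5013041, minus strand): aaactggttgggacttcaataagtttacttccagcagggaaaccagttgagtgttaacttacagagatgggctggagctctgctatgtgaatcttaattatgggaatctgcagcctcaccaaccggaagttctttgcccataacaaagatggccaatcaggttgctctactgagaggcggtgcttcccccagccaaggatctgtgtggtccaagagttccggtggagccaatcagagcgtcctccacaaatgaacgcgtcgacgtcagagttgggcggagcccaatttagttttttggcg
Dut (chr2:125247265-125247564, plus strand): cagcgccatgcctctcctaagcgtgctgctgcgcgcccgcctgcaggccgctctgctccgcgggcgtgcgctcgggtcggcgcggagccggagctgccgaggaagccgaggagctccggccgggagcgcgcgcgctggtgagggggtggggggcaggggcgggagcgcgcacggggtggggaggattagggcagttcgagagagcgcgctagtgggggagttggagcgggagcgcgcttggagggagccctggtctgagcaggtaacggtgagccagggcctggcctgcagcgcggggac
Lig1 (chr7:13278576-13278875, plus strand): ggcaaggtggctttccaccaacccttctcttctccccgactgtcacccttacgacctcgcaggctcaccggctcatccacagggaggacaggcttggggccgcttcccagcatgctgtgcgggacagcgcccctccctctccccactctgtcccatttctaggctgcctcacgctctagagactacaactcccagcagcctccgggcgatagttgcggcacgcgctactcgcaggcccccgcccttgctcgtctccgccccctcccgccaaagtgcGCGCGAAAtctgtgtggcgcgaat
Cdt1 (chr8:122567765-122568064, plus strand): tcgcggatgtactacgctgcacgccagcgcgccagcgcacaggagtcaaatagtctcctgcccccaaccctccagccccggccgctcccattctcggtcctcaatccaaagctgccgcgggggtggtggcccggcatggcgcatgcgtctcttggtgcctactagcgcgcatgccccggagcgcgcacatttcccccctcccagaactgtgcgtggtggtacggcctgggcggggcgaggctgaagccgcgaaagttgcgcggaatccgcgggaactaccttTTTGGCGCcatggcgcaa
Gins3 (chr8:95633309-95633608, plus strand): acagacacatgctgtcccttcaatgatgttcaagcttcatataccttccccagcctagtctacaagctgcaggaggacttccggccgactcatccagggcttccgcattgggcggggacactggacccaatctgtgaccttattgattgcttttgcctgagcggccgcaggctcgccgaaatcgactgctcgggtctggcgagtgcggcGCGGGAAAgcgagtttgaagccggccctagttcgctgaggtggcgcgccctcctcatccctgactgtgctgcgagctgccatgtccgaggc

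No E2F word was found in the windows of Tk1, Mcm10 and Dut, and 1 was found in each of Lig1, Cdt1 and Gins3. The Mcm10 window ends in tttggcg, which lacks only the last letter of an E2F word, and the base beyond it was not searched. For the other 12 genes with an E2F word, the match nearest to the start of transcription is shown, to let the shared letters be compared. Up to 10 bases are given on each side. Capitals mark the nearest match alone. The Rfc3 window holds another E2F word in lower case, and the Mcm5 window holds another that overlaps the marked word.
Mcm3 (chr1:20820276-20820303, minus strand): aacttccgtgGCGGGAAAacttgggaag
Mcm5 (chr8:75109350-75109377, plus strand): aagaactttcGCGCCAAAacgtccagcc
Mcm6 (chr1:128359735-128359762, minus strand): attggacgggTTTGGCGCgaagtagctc
Mcm7 (chr5:138171850-138171877, minus strand): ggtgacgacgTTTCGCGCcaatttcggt
Cdc6 (chr11:98908003-98908030, plus strand): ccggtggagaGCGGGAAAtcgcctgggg
Pola1 (chrX:93632276-93632303, minus strand): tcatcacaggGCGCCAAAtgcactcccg
Pold1 (chr7:44548766-44548786, minus strand): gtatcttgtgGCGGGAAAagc
Rfc3 (chr5:151651191-151651218, minus strand): tttcgcgctcGCGGGAAAactctactgt
Uhrf1 (chr17:56304118-56304145, plus strand): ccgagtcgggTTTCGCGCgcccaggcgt
Hells (chr19:38930918-38930945, plus strand): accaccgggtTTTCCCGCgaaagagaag
E2f2 (chr4:136172303-136172323, plus strand): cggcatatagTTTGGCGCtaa
Clspn (chr4:126556991-126557018, plus strand): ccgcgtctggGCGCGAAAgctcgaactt

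E2F words were found in 15 of the 38 genes (39.5%), against 704 of 27025 genes of the table (2.61%). They numbered 21 in all, some of them overlapping, and 13 had their centre within 100 bases of the start of transcription. Among the MCM genes, 4 of 5 with a promoter held several E2F words, and none of the 6 nucleotide supply genes held any. The words CCAAT (55.3% of the 38 genes and 41.1% of all genes) and TTTGAA or TTCGAA (the cell cycle homology region, CHR; 21.1% and 21.7%) differed less from the table as a whole. All were searched on both strands, and a match is a description of letters, not a bound site.

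**Figure D1:**
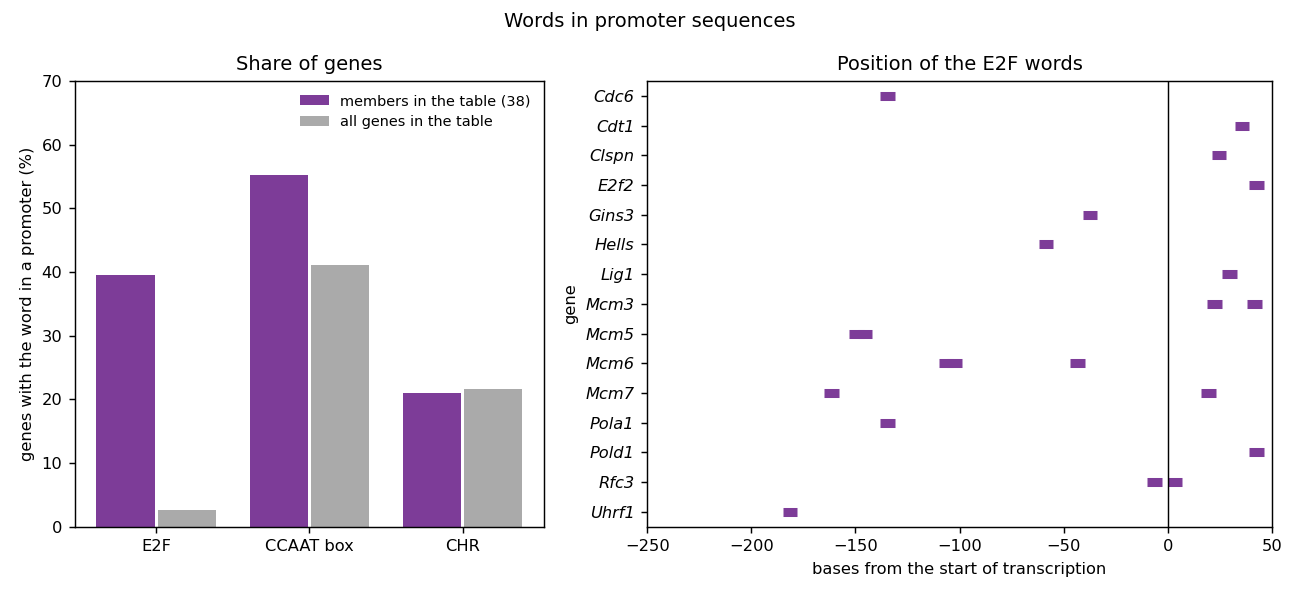
Left, the share of genes (%) with each word in a promoter for the 38 members and for all genes of the RefSeq table; right, the position of the E2F words in bases from the start of transcription (0), with a bar for each match. The E2F words were in 39.5% of the members and 2.61% of all genes, and the bars lie from the distal part of the window in Uhrf1 to just after the start in E2f2 and Pold1.

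The targeted gene was checked first. The processed signal of 2400001E08Rik (Lamtor1) was 39460 on the M2 array and 833 on the Lamtor1-deficient array, and it was 35232 with Torin1 and 14688 in M1. Each array was divided by its 75th percentile, which was 595 for M2, 536 for Lamtor1-deficient, 470.0 for Torin1-treated and 287 for M1 BMDMs, and the result is called the normalized signal below. All 7 macrophage markers were well above background on every array, although Emr1 (F4/80) had a normalized signal of 112 in M2 against 18.8 and 15.9 in the Lamtor1-deficient and Torin1-treated cultures, and Fcgr1 of 5.20 against 0.167 and 0.213. Cd68, Mertk and Lyz2 were higher than in M2 in both of these cultures, with log2 ratios from 0.12 to 0.90, and the median of the 7 markers was -0.44 with Lamtor1 loss and 0.12 with Torin1. Neutrophil markers set the M2 array apart from the others. All 5 measured markers were highest there, with a summed normalized signal of 89.9 in M2 and of 6.04, 5.75 and 4.24 in Lamtor1-deficient, Torin1-treated and M1 BMDMs. S100a9, a calprotectin subunit of neutrophils, was at 65.3 in M2 and between 1.38 and 2.45 elsewhere. The sum of 4 fibroblast markers was 43.0 in M2, 55.2 in Lamtor1-deficient, 15.1 in Torin1-treated and 15.9 in M1 BMDMs. The sums ran from 1.98 to 4.06 for 5 lymphocyte markers, from 0.131 to 0.617 for 4 erythroid markers and from 0.471 to 1.21 for 4 progenitor markers. Within the progenitor list, Mpo was highest in M2, Cd34 in Lamtor1-deficient, Kit in Torin1-treated and Flt3 in M1 BMDMs. These marker differences move with every comparison against M2 below, and their part in the results was not tested. RNA was taken from whole cultures, in which fewer cells of a type and less RNA per cell cannot be told apart.

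**Figure D2:**
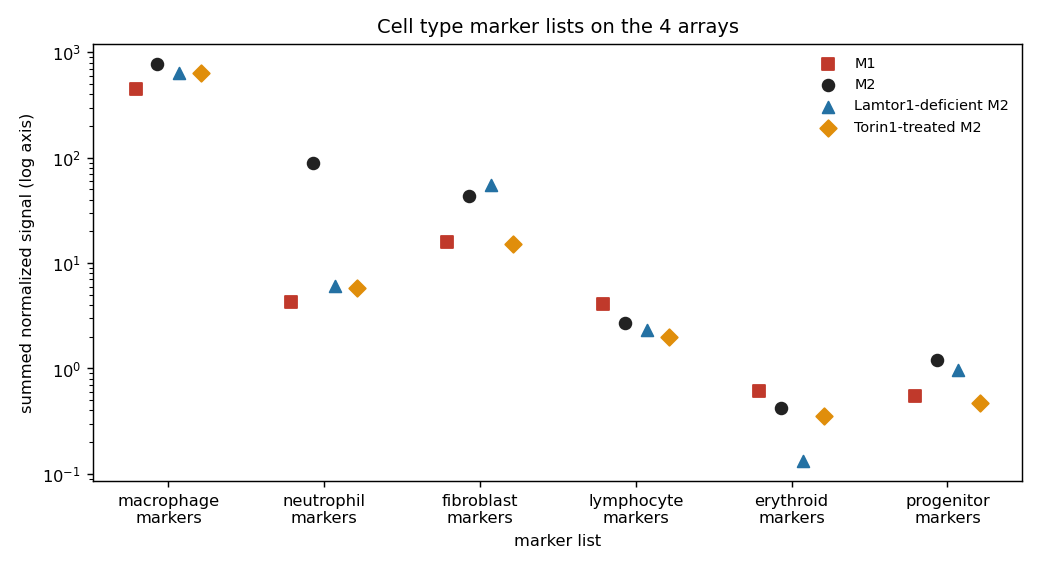
Summed normalized signal of each marker list (log axis) on the 4 arrays, with a symbol for each array. The neutrophil sum is 89.9 in M2 and 6.04 or less on the other arrays, while the macrophage sum lies between 450 and 779 on all 4.

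Most replication genes had their highest signal in M2 BMDMs. Of the 45 genes, 28 were highest on the M2 array, against 12.5% of all gene names, and 23 were lowest on the M1 array, against 25.2% of all gene names. Another 11 were highest in M1 (background 52.1%), 4 in Torin1-treated (17.5%) and 2 in Lamtor1-deficient BMDMs (18.0%). The shares of all gene names include many dim probes, whereas 40 of the 45 members were well above background on all arrays. Members and all gene names are thus not matched for brightness here. Under the 4 other scalings and background corrections tried, 27 to 32 genes were highest in M2 (10.1% to 21.9% of all gene names) and 21 to 30 lowest in M1 (22.2% to 39.5%). The lowest signal was on the Torin1-treated array for 13 genes (34.0%), on the Lamtor1-deficient array for 6 (16.8%) and on the M2 array for 3 (23.9%). The median technical SD of a log2 ratio, from spots of the same probe within an array, was between 0.090 and 0.098 in the 4 comparisons for probes well above background, and it does not include the variation between cultures.

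**Figure D3:**
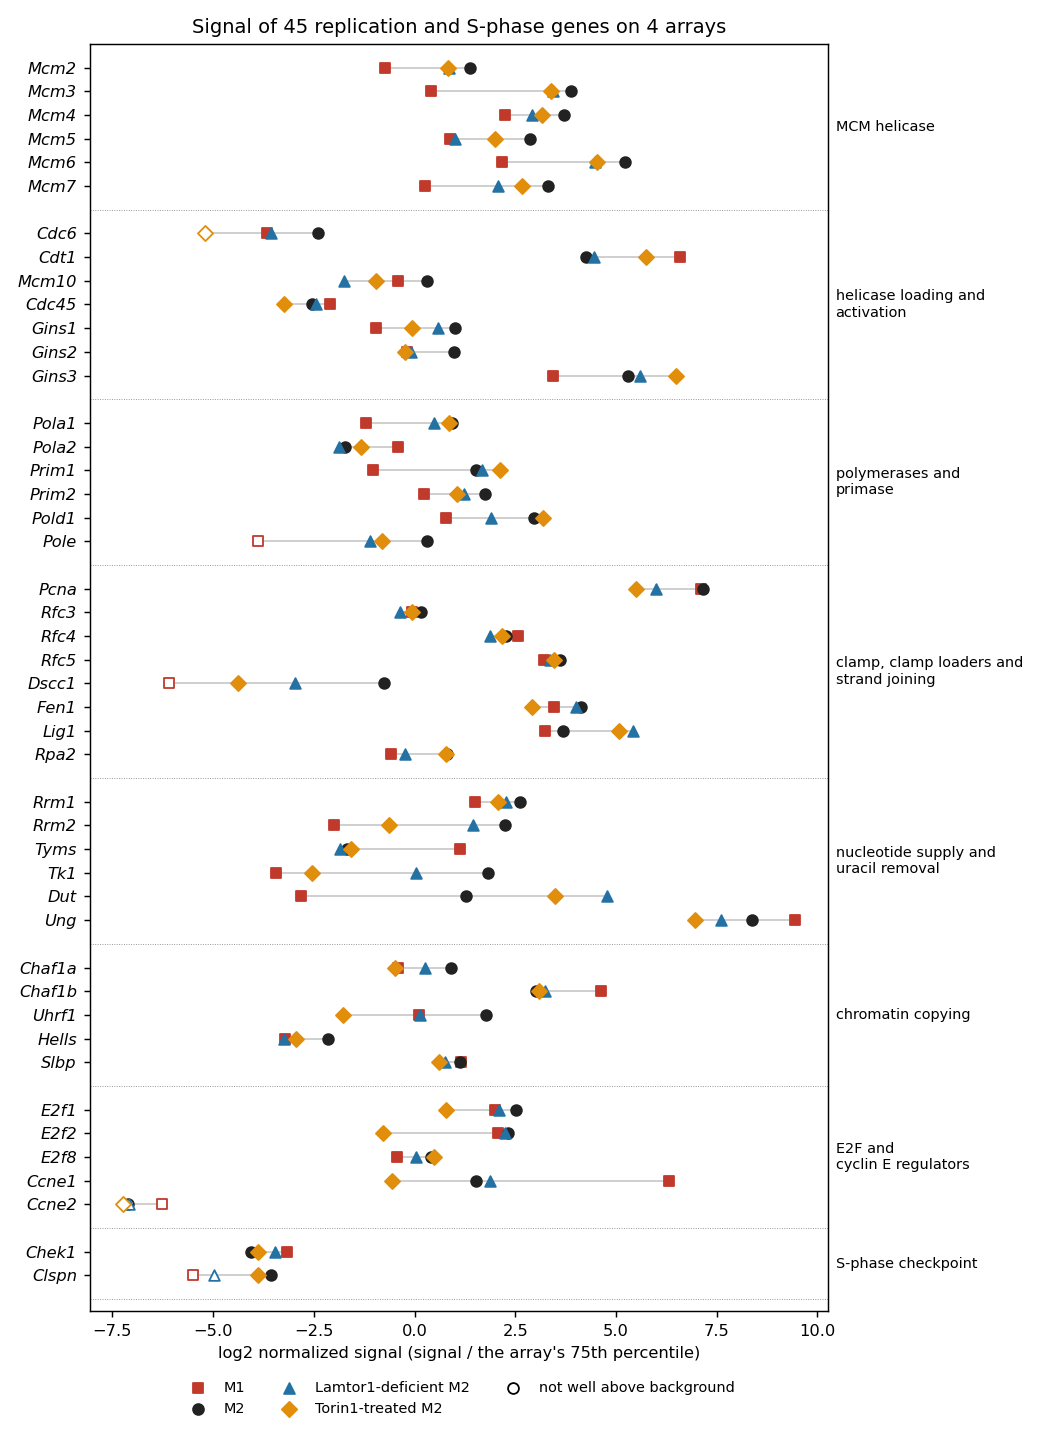
log2 normalized signal (signal over the 75th percentile of the array) of the 45 genes by role, with a symbol for each array and open symbols where the probe was not well above background. The M2 symbol lies rightmost for 28 genes and the M1 symbol leftmost for 23, with Cdt1, Tyms, Chaf1b, Ung and Ccne1 among the genes that are highest in M1.

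Loss of Lamtor1 went with lower signals across the replication genes. In Lamtor1-deficient over wild-type M2 BMDMs, 14 of the 45 genes were at least 2-fold lower, where 8.74% of all gene names were, and 2 were at least 2-fold higher, where 8.88% were. The median log2 ratio of the set was -0.46, with quartiles of -1.06 and -0.12, and that of all gene names was 0.04, with quartiles of -0.24 and 0.36. Of the 45 genes, 35 had a negative ratio, where 8685 of 23660 gene names (36.7%) did, and 7 lay within 0.18 of 0, which is 2 technical SDs. Among genes well above background on both arrays, 13 of 43 members were at least 2-fold lower (background 7.80%) and 2 at least 2-fold higher (background 7.84%). With normexp background correction, 9 of the 45 members were at least 2-fold lower, against 4.15% of all gene names.

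Torin1 treatment also went with lower signals for many of the genes. In Torin1-treated over untreated M2 BMDMs, 16 genes were at least 2-fold lower (background 11.7%) and 4 at least 2-fold higher (background 14.3%). The median log2 ratio of the set was -0.53, with quartiles of -1.26 and -0.03, against -0.05 for all gene names, with quartiles of -0.37 and 0.59. The lowest ratio was -4.39, for Tk1, whereas with Lamtor1 loss the lowest was -2.21, for Dscc1. Of the genes well above background on both arrays, 15 of 43 were at least 2-fold lower (background 13.1%) and 4 at least 2-fold higher (background 12.0%). Both comparisons use the M2 array as their denominator, so each gene's values are set side by side below and no overlap between them is counted.

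In M1 over M2 BMDMs, 25 genes were at least 2-fold lower (background 19.2%) and 6 at least 2-fold higher (background 30.7%). The 25 include Clspn, which its bound does not place past 2-fold. The median log2 ratio was -1.16, and that of all gene names was 0.75, which includes many dim probes. For genes well above background on both arrays, the median was -1.10 over 41 members and 0.09 over all 13452 such gene names, with 22 of the 41 members at least 2-fold lower (background 25.3%) and 6 at least 2-fold higher (background 25.2%). With each array shifted to its median instead, all gene names had a median of -0.07, and 33 members were at least 2-fold lower, against 31.7% of all gene names, and 3 at least 2-fold higher, against 15.6%.

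**Figure D4:**
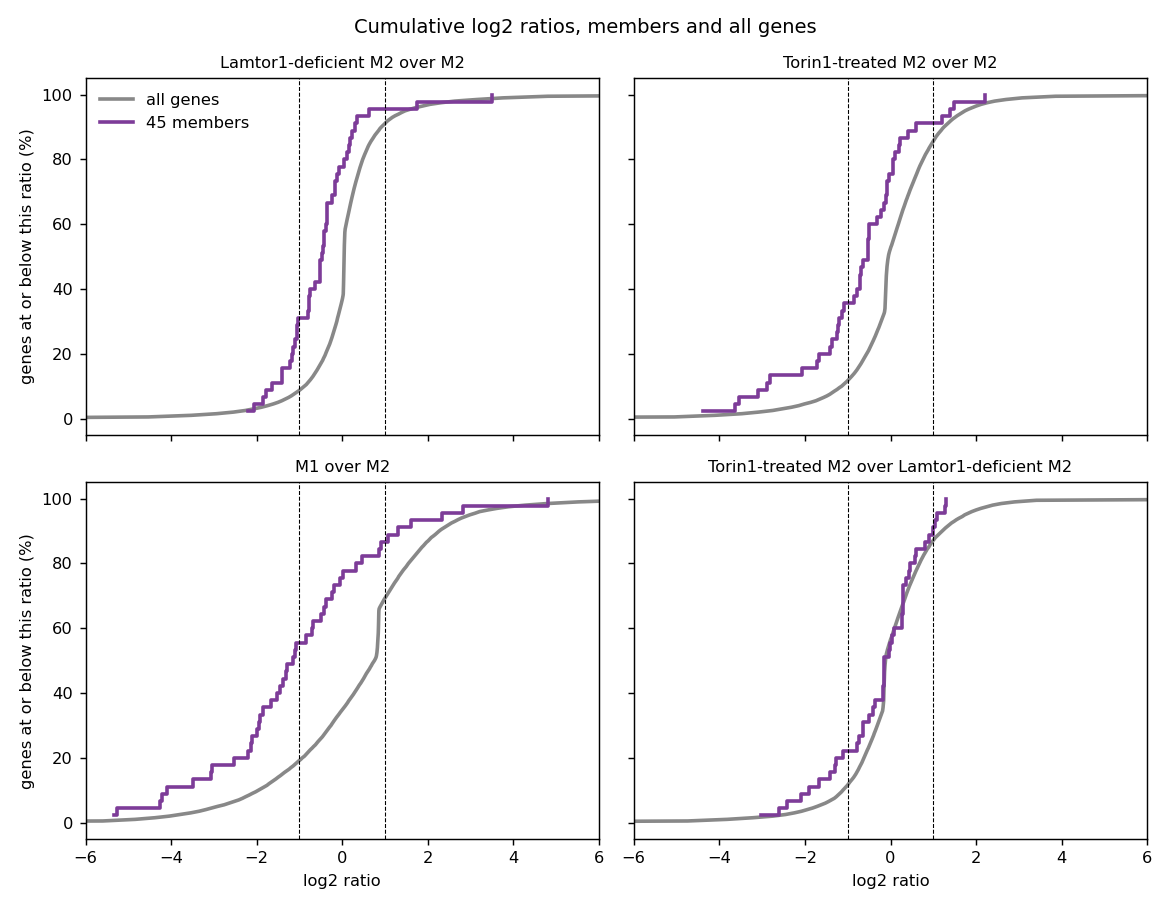
Cumulative share (%) of the 45 members and of all gene names at or below each log2 ratio, for the 4 comparisons, with dashed lines at 2-fold. The curve of the members lies to the left of that of all genes over most of its range in the 3 comparisons with M2, and the curves lie close together for Torin1-treated over Lamtor1-deficient BMDMs, where the medians are -0.14 and -0.12.

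The 6 MCM genes, whose products form the replicative helicase, were lower than in M2 on each of the other arrays, under each of the 4 other scalings and background corrections as well. Mcm6 had a normalized signal of 37.7 in M2, 22.4 in Lamtor1-deficient, 22.9 in Torin1-treated and 4.49 in M1 BMDMs. Mcm5 was at 7.25, 2.00, 4.01 and 1.83, and Mcm7 at 9.86, 4.20, 6.30 and 1.20 on these arrays in the same order. Mcm3 was at 14.9 in M2 and at 10.8, 10.5 and 1.32 on the others, and Mcm2 at 2.59 in M2 and at 1.80, 1.79 and 0.602. Mcm4 was at 13.0 in M2 and at 7.53, 9.02 and 4.72 on the others. For all 6 genes the treated cultures lay between M2 and M1. Across the 6 genes the log2 ratio ran from -1.86 to -0.46 with Lamtor1 loss, from -0.85 to -0.50 with Torin1 and from -3.50 to -1.46 in M1. Of the 6, 2 were at least 2-fold lower with Lamtor1 loss (Mcm5 and Mcm7), 0 with Torin1 and 6 in M1, where 8.74%, 11.7% and 19.2% of all gene names were. A second Mcm3 probe, which overlaps the first, gave -0.49, -0.46 and -3.50 in these comparisons, against -0.46, -0.50 and -3.50.

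Genes that load and activate the helicase did not share an order over the arrays. Mcm10, which helps to start the loaded helicase, was at 1.23 in M2, 0.295 in Lamtor1-deficient, 0.516 in Torin1-treated and 0.753 in M1 BMDMs. It was the second lowest member with Lamtor1 loss, at a log2 ratio of -2.06. Cdc6, which loads the MCM ring, was at 0.191 in M2 and 0.0853 in Lamtor1-deficient BMDMs, and with Torin1 its probe was not well above background, at least 5.71-fold lower than in M2. Cdt1, the partner of Cdc6, was lowest in M2 and highest in M1 BMDMs. Its normalized signal was 19.1 in M2, 21.8 in Lamtor1-deficient, 53.5 in Torin1-treated and 96.7 in M1 BMDMs, which gave log2 ratios of 0.19, 1.49 and 2.34. Among the GINS genes, whose complex binds the active helicase, Gins1 and Gins2 were lower than in M2 on all other arrays, with log2 ratios between -1.96 and -0.43. Gins3 was at 39.0 in M2, 48.2 in Lamtor1-deficient, 90.2 in Torin1-treated and 10.8 in M1 BMDMs. Cdc45, which completes the active helicase, was dim, between 0.106 and 0.233, and its log2 ratio in M1 was 0.45 or, with arrays shifted to their median, -0.37.

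Polymerase genes were low in M1 and less uniform in the treated cultures. Pold1, the catalytic subunit of polymerase δ, was at 7.80 in M2, 3.76 in Lamtor1-deficient, 9.09 in Torin1-treated and 1.71 in M1 BMDMs. Its log2 ratio was -1.05 with Lamtor1 loss and 0.22 with Torin1, the latter -0.03 after the shift to the median. Pole, the catalytic subunit of polymerase ε, was at 1.24 in M2, 0.465 and 0.568 in the treated cultures, and not well above background in M1, at least 18.5-fold lower. The log2 ratios were -1.42 with Lamtor1 loss and -1.13 with Torin1, and those of a further Pole probe -0.56 and -0.83. In M1 the measured log2 ratio of that further probe was only -0.49, with its M1 signal not well above background either. With normexp background correction, the log2 ratio of the first probe in M1 was -2.34. The primase gene Prim1 was at 2.86, 3.20, 4.35 and 0.492 in M2, Lamtor1-deficient, Torin1-treated and M1 BMDMs. Pola1, Prim2 and Prim1 had log2 ratios between -2.54 and -1.52 in M1. Only Pola2, an accessory subunit of polymerase α, was higher in M1 than in M2 among these 6 genes, at 0.752 against 0.304, a log2 ratio of 1.31, or 0.49 with arrays shifted to their median.

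Clamp and strand-joining genes ran from Dscc1, the lowest member with Lamtor1 loss, to Lig1, the second highest. Pcna, the sliding clamp, was at 142 in M2, 64.0 in Lamtor1-deficient, 44.9 in Torin1-treated and 137 in M1 BMDMs. Its log2 ratio was -1.15 with Lamtor1 loss, -1.66 with Torin1 and -0.05 in M1, the last -0.29 with quantile normalization and -0.87 with arrays shifted to their median. Dscc1, part of an alternative clamp loader used in sister chromatid cohesion, was at 0.589 in M2 and at 0.127 and 0.0477 in the Lamtor1-deficient and Torin1-treated cultures. In M1 it was not well above background, at least 8.98-fold lower than in M2. Lig1, the ligase that seals Okazaki fragments, was at 12.8 in M2, 42.9 in Lamtor1-deficient, 33.5 in Torin1-treated and 9.50 in M1 BMDMs, which gave log2 ratios of 1.75, 1.39 and -0.43, the last -1.25 with arrays shifted to their median. Fen1, which trims those fragments, was at 17.6, 16.2, 7.56 and 10.9 in the same order, and its log2 ratio in M1 was -0.69 or, with the same shift, -1.51. The clamp loader genes Rfc3, Rfc4 and Rfc5 had log2 ratios between -0.52 and 0.32 in the 3 comparisons. With arrays shifted to their median, those in M1 were -1.03, -0.50 and -1.20. Rpa2, a subunit of the single-strand binding protein, was at 1.76 in M2, 0.844 in Lamtor1-deficient, 1.72 in Torin1-treated and 0.670 in M1 BMDMs.

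Nucleotide supply genes spanned the widest range of log2 ratios of any role in each of the 3 comparisons with M2. Tk1, thymidine kinase (probe on chromosome 11, from 117676845 to 117676904 of mm9), was at 3.56 in M2, 1.03 in Lamtor1-deficient, 0.170 in Torin1-treated and 0.0924 in M1 BMDMs. The log2 ratios were -1.79, -4.39 and -5.27, with each array well above background. Rrm2, the small subunit of ribonucleotide reductase, was at 4.75, 2.71, 0.639 and 0.250 in the same order, and its partner Rrm1 at 6.12, 4.80, 4.23 and 2.85. The order of Tk1, Rrm1 and Rrm2 was thus the same, from M2 down to M1. Dut, which removes dUTP, went against it. Its normalized signal was 2.42 in M2, 27.3 in Lamtor1-deficient, 11.2 in Torin1-treated and 0.143 in M1 BMDMs, with log2 ratios of 3.49, 2.21 and -4.09. Dut was the member with the highest ratio in both treated cultures, and it had 1 probe (chromosome 2, from 125083359 to 125083418 of mm9). Tyms, thymidylate synthase, was at 0.313, 0.279, 0.334 and 2.20, so it was highest in M1 (log2 ratio 2.82), and with Torin1 its sign changed with the scaling. Ung, which excises uracil from DNA, was at 331 in M2, 194 in Lamtor1-deficient, 125 in Torin1-treated and 692 in M1 BMDMs. Its log2 ratio in M1 was 1.06, but 0.24 with arrays shifted to their median and 0.31 with quantile normalization.

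**Figure D5:**
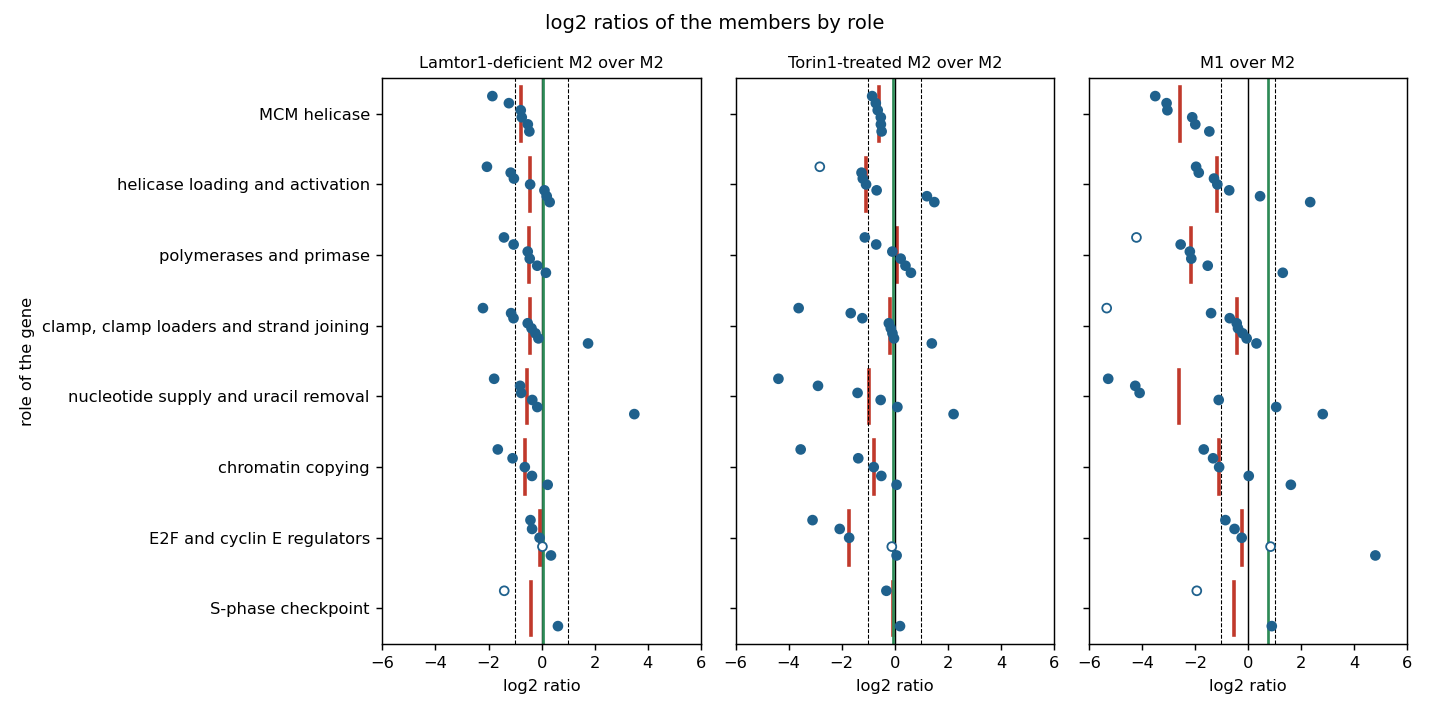
log2 ratios of the 45 genes by role in the 3 comparisons with M2, with a point for each gene (open where the probe was not well above background on at least 1 array), a red bar at the median of the role, a green line at the median of all gene names and dashed lines at 2-fold. The MCM genes lie left of 0 in all 3 panels, and of the 5 E2F and cyclin E regulators, 3 lie past the 2-fold line on the lower side with Torin1 and 0 with Lamtor1 loss. The medians of the roles include the open points.

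Genes of chromatin copying included Uhrf1, which brings the maintenance methyltransferase to new DNA. It was at 3.44 in M2, 1.10 in Lamtor1-deficient, 0.294 in Torin1-treated and 1.08 in M1 BMDMs, with log2 ratios of -1.65, -3.55 and -1.67. Its other probe was not well above background on any array. Chaf1a, the large subunit of chromatin assembly factor 1, was at 1.87, 1.20, 0.719 and 0.749 in the same order. Its partner Chaf1b was at 8.12, 9.51, 8.49 and 24.8, so only M1 stood apart, with a log2 ratio of 1.61 and of 1.79 on an overlapping probe, the former 0.79 with arrays shifted to their median. Hells, a remodeling helicase, was dim and highest in M2, at 0.227 against 0.107 to 0.131 elsewhere. Slbp, which binds the stem-loop of histone mRNA, had log2 ratios of -0.36 and -0.51 in the treated cultures, and its ratio of 0.03 in M1 changed sign with the scaling.

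Of the 5 E2F and cyclin E regulators, 3 were at least 2-fold lower with Torin1 (background 11.7%) and 0 with Lamtor1 loss (background 8.74%), and Ccne2 was not well above background on any array. E2f2, an activator E2F, was at 4.99 in M2, 4.73 in Lamtor1-deficient, 0.581 in Torin1-treated and 4.23 in M1 BMDMs. The Torin1-treated culture was the lowest, with a log2 ratio of -3.10, while that of M1 was -0.24 or, with arrays shifted to their median, -1.06. E2f1 was at 5.70, 4.26, 1.73 and 4.01, again lowest with Torin1. Ccne1, cyclin E1, was at 2.87 in M2, 3.67 after Lamtor1 loss, 0.681 after Torin1 and 79.9 in M1. Its log2 ratios were 0.35, -2.08 and 4.80. A second probe gave -0.01 with Lamtor1 loss and 4.48 in M1, and its Torin1 signal was not well above background. The repressor E2f8 was at 1.33, 1.03, 1.39 and 0.734. Of the S-phase checkpoint genes, Chek1 was dim on all arrays, from 0.0595 in M2 to 0.111 in M1. Clspn was well above background in M2 and Torin1-treated BMDMs alone. It was at least 2.25-fold lower in Lamtor1-deficient and at least 1.28-fold lower in M1 than in M2 BMDMs. With normexp background correction, its log2 ratio was -0.30 with Lamtor1 loss, and in M1 it changed sign, to 0.23.

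A direct ratio of Torin1-treated over Lamtor1-deficient M2 BMDMs leaves the M2 array out. In it, 10 of the 45 genes were at least 2-fold lower (background 11.6%) and 5 at least 2-fold higher (background 12.8%), and the median log2 ratio of -0.14 was close to that of all gene names, -0.12. The 10 lower genes were E2f2 (-3.02), Tk1 (-2.60), Ccne1 (-2.43), Rrm2 (-2.09), Uhrf1 (-1.90), Cdc6 (at least 2.55-fold), Dscc1 (-1.41), E2f1 (-1.30), Dut (-1.28) and Fen1 (-1.10). The higher genes were Cdt1 (1.30), Pold1 (1.28), Rpa2 (1.03) and Mcm5 (1.00), and Clspn, which was counted by its measured ratio although its Lamtor1-deficient signal was not well above background and the bound is 1.80-fold. Among genes well above background on both arrays, 9 of 42 were at least 2-fold lower (background 12.9%) and 4 at least 2-fold higher (background 9.96%). With arrays shifted to their median, 12 of the 45 were at least 2-fold lower, against 18.0% of all gene names, and 0 at least 2-fold higher, against 8.74%. The fibroblast markers moved with this ratio too, all 4 of them at least 2-fold lower with Torin1, and all 5 neutrophil markers were lower with Torin1, 1 of them at least 2-fold (median log2 ratio -0.56). The log2 ratios of S100a8 and S100a9, which make up most of the neutrophil sum, were -0.03 each and changed sign with the scaling. The part of these markers in the direct ratio was not tested.

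The promoter words were set beside the ratios as a description. The 15 genes with an E2F word had a median log2 ratio of -0.75 with Lamtor1 loss and -1.86 in M1, and the 23 genes without it had -0.36 and -0.51. With Torin1 the medians were -0.50 and -0.53. At least 2-fold lower were 7 of the 15 and 4 of the 23 genes with Lamtor1 loss, 3 and 9 with Torin1, and 11 and 8 in M1, where 8.74%, 11.7% and 19.2% of all gene names were. Tk1, Rrm2 and Ccne1, among the lowest genes with Torin1, had no E2F word in these windows, which says only that these letters are not there. Uhrf1, E2f2 and Cdc6, also among the lowest with Torin1, each held a word.

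Further genes of replication, picked for their roles, gave smaller median ratios. Of 35 of them, 6 were at least 2-fold lower and 2 higher with Lamtor1 loss, 7 and 1 with Torin1, and 11 and 3 in M1, with median log2 ratios of -0.20, -0.36 and -0.61. The shares of all gene names lower and higher were 8.74% and 8.88%, 11.7% and 14.3%, and 19.2% and 30.7%, and the same backgrounds hold for the lists that follow. Dck, deoxycytidine kinase, had log2 ratios of -2.36 with Lamtor1 loss and -2.84 with Torin1. Pold4 (-1.67) and Exo1 (-1.38) were the next lowest with Lamtor1 loss, and Dna2 (-2.26) and Exo1 (-1.92) with Torin1. The clamp loader gene Rfc2 was higher than in M2 in both, at 1.02 and 1.54, and Rnaseh2b was at 1.31 with Lamtor1 loss. In M1, Exo1 was at least 13.9-fold lower, Pole2 was at -3.80 and Dna2 at -3.35. Dnmt1, the maintenance methyltransferase, was at 1.57 and the histone chaperone gene Nasp at 1.24 in M1.

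Among 26 regulators of G1 and S entry, cyclin D1 (Ccnd1) was at 18.5 in M2, 3.21 in Lamtor1-deficient, 0.807 in Torin1-treated and 18.9 in M1 BMDMs. Myc had log2 ratios of -1.34, -2.66 and -5.52, and Ccna2, cyclin A2, of -1.11 and -3.67, with M1 at least 23.3-fold below M2. Cdkn1c, which encodes the CDK inhibitor p57, was at 0.875 in M2, 410 in Lamtor1-deficient, 74.7 in Torin1-treated and 4.72 in M1 BMDMs. In the whole list, 6 genes were at least 2-fold lower and 1 higher with Lamtor1 loss, 6 and 2 with Torin1, and 9 and 9 in M1, where the higher genes were near the background of 30.7%. Of 15 genes of G2 and mitosis, 4 were at least 2-fold lower and 1 higher with Lamtor1 loss (median log2 ratio -0.54), 11 and 0 with Torin1 (median -1.58), and 10 and 1 in M1 (median -1.96). Kif11, a mitotic kinesin, was at -1.76 with Lamtor1 loss and at least 4.81-fold lower with Torin1, and Ccnb1, cyclin B1, was at 1.01 and -1.29. Of 10 housekeeping genes, none was past 2-fold with Lamtor1 loss, whereas Hprt (-1.21) and Pgk1 (-1.48) were with Torin1, and 5 were in M1.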

How the data were processed

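The authors deposited the scanner files of 4 Agilent 1-colour arrays, which hold for each spot a processed intensity, after removal of background and of spatial trends but before any normalization between arrays, and a series table of the same intensity values. The files name Feature Extraction 10.7.3.1, the submitters' processing notes 10.5.1.1. The arrays shared a slide and a scan. Control spots and spots marked as outliers were left out (170 to 226 an array), spots of a probe were averaged, divided by the 75th percentile of the array as in the study's methods, and set on the log2 scale with no filter on dim probes; no spot was saturated.

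The lowest signal well above background was between 15.7 and 21.6. Where only 1 of the paired arrays had the probe well above background, a bound ("at least") was taken against the higher of that signal and the probe's own; where neither had, no ratio is given for the gene, although counts and medians include it. A bound holds under the main processing only. With normexp background correction, the ratios of the members Cdc6, Pole, Dscc1 and Clspn fell short of their bounds. The number of arrays limits the precision. Background shares count all 23660 gene names, 1 probe each. The text names all members, the targeted gene and, from each further list, the genes with the 3 lowest and 3 highest ratios; only a part of these is given, and an item is not reported here; the E2F windows and the markers Emr1, Fcgr1, S100a9, Cd68, Mertk, Lyz2 and the progenitor genes were picked with values in view. The members, lists and promoter rule were chosen with earlier results of these data known. Probe coordinates are on mm9 and promoters on GRCm38.p6, and no coordinates were converted. The scripts were tested on simulated arrays for coding errors only. Software was limma 3.58.1 (R 4.3.3) and pandas 2.3.3, NumPy 2.4.6 and matplotlib 3.10.9 (Python 3.11.15).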

Additional observations from a re-analysis of the deposited data

How the results depend on the processing

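No paired analysis was possible because each condition had 1 array, and for the same reason no array could be left out. Of 116 values recomputed under the alternatives, 101 kept their direction and stayed within the technical SD over all repeated probes, dim ones included, of 0.124 to 0.166 (medians) or within 1.5 times (counts). With a 3-fold threshold, the genes lower numbered 5 with Lamtor1 loss, 9 with Torin1 and 6 for Torin1-treated over Lamtor1-deficient BMDMs, and those higher 1 with Torin1 and 0 in the direct ratio; of all gene names 4.62%, 6.38% and 5.66% were lower, and 6.28% and 6.15% higher. With arrays shifted to their median, the median log2 ratio was -0.78 with Torin1, -1.98 in M1 and -0.46 in the direct ratio, 3 genes were higher in M1 and 0 in the direct ratio. With normexp background correction, which adds an offset of 50 and so shrinks the ratios of dim probes, 9 genes were lower with Lamtor1 loss (4.15% of all gene names), 2 were higher in the direct ratio (4.75%), and the median in M1 was -0.83. The median of the direct ratio changed sign with quantile normalization (0.00013) and with the percentile over bright probes (0.0072), and the cause was not tested. Over all gene names, the shift to the median moved the share at least 2-fold lower in M1 from 19.2% to 31.7% and the share higher from 30.7% to 15.6%. Of 180 signs of members, 25 changed under at least 1 scaling or background alternative. The remaining alternatives were a floor at the dimmest probe well above background, keeping outlier spots and the series table. Others were the median over the probes of a gene and a filter on dim probes. All of these are counted in the 116, and none moved a value past the limits given above. The series table differed from the scanner values by at most 0.50%, and few spots were outliers, so those alternatives could change little.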
